A study of Mus musculus with 3 samples.

Results

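A set of 137 CDR3α amino acid sequences was found in CD4 single-positive (CD4 SP) thymocytes and also in thymic regulatory T cells (Tregs), out of 3237 different CDR3α in the data. A sequence belonged to the set if it occurred in at least 1 CD4 SP cell and in at least 1 CD73- Treg or CD73+ Treg cell, among cells with exactly 1 productive TCRα chain. Another 800 CDR3α were seen in CD4 SP and not in Tregs, 640 in Tregs and not in CD4 SP, and 1660 in neither. Members were thus chosen by their measured presence in these cells, so the size of the set and its cells in CD4 SP and Tregs are a description, and no more is read from them.

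Thymocytes of 8 female mice aged 7 to 12 weeks were pooled, sorted into 6 populations with a hashtag antibody each, and sequenced together as gene expression, hashtag and TCRα-enriched libraries. All mice were of the strain given as C56Bl/6- Tcliβ x TCRα+/- x Foxp3-GFP, so every population carried the TCliβ chain, the TCRα+/- genotype and the Foxp3-GFP reporter, and cells of each were sorted as positive for Vα2, which TRAV14 genes encode. The populations were CD4+CD8+ cells (DP), taken from whole thymus, and, from thymus depleted of CD8+ cells, CD4 SP cells without CD25, Foxp3 or CD73, Treg progenitors marked by CD25 (CD25+ TRP) or by low Foxp3 (Foxp3lo TRP), and Tregs that lack or carry CD73 (CD73- Treg, CD73+ Treg). The labels do not give the mouse of a cell, and each population is 1 sorted sample, so there was no replicate and no test. Ranges after a share are its exact 95% limits (Clopper-Pearson), which take in counting error alone and treat related cells as independent. The gene rows of the matrix carry no names as used here, so the population labels were not checked by marker expression.

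The CDR3 is the loop of a TCR chain that is made where a V and a J segment are joined. Bases can be trimmed from the ends of the segments, and others can be added between them, so most junctions differ from cell to cell, while a junction built from germline bases alone can be made again and again. The same CDR3 amino acid sequence can also arise from different nucleotide sequences, because most amino acids have several codons. CD4 SP cells and Tregs pass through selection on self peptides, and a CDR3α found on both sides was carried by cells of both populations. A shared CDR3α is not by itself a shared TCR, since the V segment joined to it can differ.

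The junctions that carry the results are shown here, from the deposited contig table, 5′ to 3′ from the codon of the conserved cysteine. Capitals mark bases that match neither the end of the TRAV segment nor the start of the TRAJ segment of the same chain. Germline ends are from GENCODE M21 (GRCm38, chromosome 14, plus strand). All 9 TRAV14 copies have an annotated end of the same 13 bases, so a CDR3 does not by itself show which copy a chain uses. TRAV14-2, TRAV14D-2 and TRAV14N-2 also have a transcript that stops after the first 9 of these bases, and the longer end was used for each. The members below are the pair with the most cells and a member whose V copy differed between CD4 SP and Tregs, each next to the germline J start it uses.
TRAV14 copies, from the cysteine codon: tgtgcagcaagtg
TRAJ13, germline start: caaattctgggacttaccagaggtttggaa
Member with the most cells, on TRAJ13: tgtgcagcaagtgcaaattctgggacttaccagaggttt
TRAJ23, germline start: tgaattataaccaggggaagcttatctttg
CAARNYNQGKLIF: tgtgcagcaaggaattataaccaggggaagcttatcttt
TRAJ15, germline start: cctaccagggaggcagagctctgatatttg
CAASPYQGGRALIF: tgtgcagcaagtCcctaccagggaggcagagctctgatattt
The member with the most cells (113 in CD4 SP and 5 in Tregs) and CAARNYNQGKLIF (18 and 56) can thus be read with 0 bases outside germline, and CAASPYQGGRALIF with 1. TRAJ13 lies at 54205741 to 54205797, TRAJ23 at 54196081 to 54196140 and TRAJ15 at 54204422 to 54204481, all annotated as TCR J genes.

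Most members rested on few cells. Of the 1577 CDR3α seen in CD4 SP or Tregs, 8.69% were in both, a share fixed by the rule. Members had between 2 and 118 CD4 SP and Treg cells, with a median of 3. The smallest possible case, 1 CD4 SP and 1 Treg cell, made up 52 of the 137 members, and 23 members had at least 10 cells. At the edge of the rule, 6 members had at least 10 CD4 SP cells and a single Treg cell, while 10 CDR3α with at least 10 CD4 SP cells had no Treg cell, led by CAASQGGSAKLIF with 33. On the other side, 3 CDR3α had at least 10 Treg cells and no CD4 SP cell, led by CAASAGYSNNRLTL with 74. No member had at least 10 Treg cells and a single CD4 SP cell.

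Members were carried by 625 of 1849 CD4 SP cells (33.8%, 31.6 to 36.0) and by 339 of 1280 Treg cells (26.5%, 24.1 to 29.0). Among Tregs, 70 of the 223 without CD73 had a member (31.4%, 25.4 to 37.9), as did 269 of the 1057 with CD73 (25.4%, 22.8 to 28.2). The CD73+ Tregs held 89 members that were not seen in CD73- Tregs, the CD73- Tregs held 23 not seen in CD73+ Tregs, and 25 were in both. Fewer CD73- Treg cells were sequenced, which limits this split. Median gene expression UMIs were 2651 in CD4 SP cells with a member and 2777.5 in the other CD4 SP cells. They were 2733 and 3013 in Tregs, and median TCRα UMIs were 19 and 19 in CD4 SP and 16 and 19 in Tregs. The part of depth in these shares was not tested.

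The ratio of a member's share in Tregs to its share in CD4 SP ran from 0.0602 to 10.1, with a median of 1.44. A ratio of 1.44 is that of any member with equal cell counts on both sides, such as the 52 with 1 and 1. It follows from the 1280 Treg and 1849 CD4 SP cells and shows no lean toward Tregs. It was at least 2 for 30 members (21.9%) and at most 1/2 for 33 (24.1%), against 42.5% and 52.8% of all CDR3α seen in either population. The rule used this contrast, so nothing is read from these shares. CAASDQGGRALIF and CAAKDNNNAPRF stood at the Treg end, each in 1 CD4 SP and 7 Treg cells. A member on TRAJ12 stood at the CD4 SP end, in 24 CD4 SP cells and 1 Treg cell. Other members of that kind were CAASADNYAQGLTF (17 and 1), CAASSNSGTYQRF (13 and 1) and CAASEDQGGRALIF (12 and 1). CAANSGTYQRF (6 and 17), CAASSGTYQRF (4 and 10) and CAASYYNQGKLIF (2 and 6) lay toward Tregs.

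**Figure D1:**
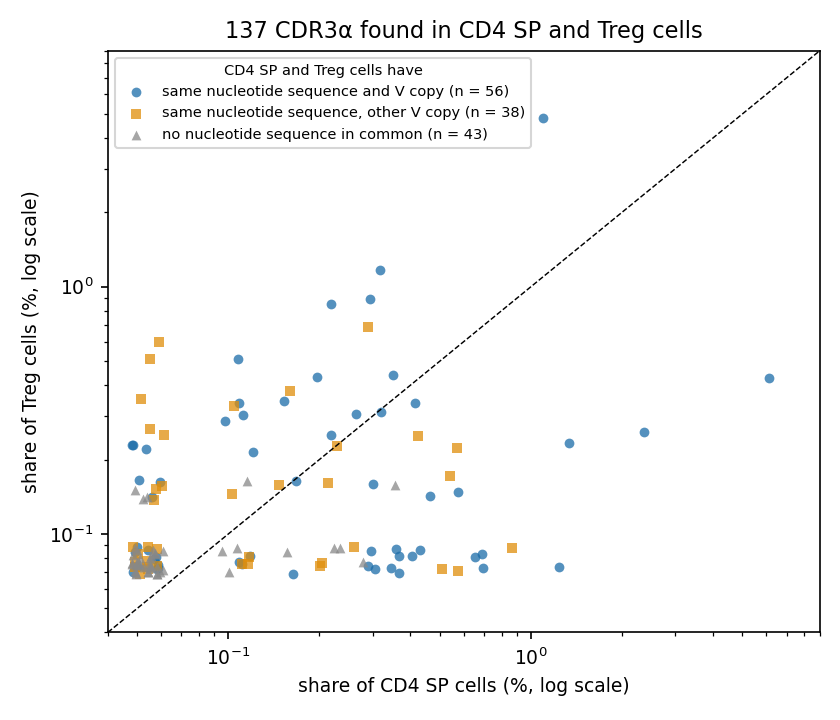
Share of CD4 SP cells (x axis, %, log scale) and of Treg cells (y axis, %, log scale) for each of the 137 members, with a small random shift so that equal values can be seen. The dashed line marks equal shares; colour and shape show whether CD4 SP and Treg cells have a nucleotide sequence with the same V copy in common (56 members), a nucleotide sequence with other V copies (38) or none (43). Members with many cells are mostly of the first kind, and members at the lower left, with a single cell on each side, are of all 3 kinds.

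At the nucleotide level, 94 of 137 members (68.6%, 60.1 to 76.3) had at least 1 identical CDR3 nucleotide sequence in a CD4 SP and a Treg cell. With the same V copy as well, 56 remained (40.9%, 32.6 to 49.6), and all 56 had the same J. All 23 members with at least 10 cells had an identical nucleotide sequence on both sides, and 16 of them had it with the same V copy. Of the 52 members with 1 cell on each side, 21 had it (40.4%, 27 to 54.9), and 10 had it with the same V copy. Whether an identical chain on both sides came from 1 clone or from separate rearrangements cannot be told apart, since cells are not tied to mice and junctions without added bases recur.

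Most members were encoded in several ways. Among CD4 SP and Treg cells, 107 members (78.1%, 70.2 to 84.7) had more than 1 nucleotide sequence, against 16.6% of all CDR3α of these populations, and 43 had at least 3. The number of cells sets how many can be seen: with exactly 2 cells, the shares were 59.6% of members (45.1 to 73.0), 53.6% of CDR3α in CD4 SP and not Tregs (42.4 to 64.5) and 45.8% of those in Tregs and not CD4 SP (31.4 to 60.8), intervals that overlap. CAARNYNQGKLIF had the most, with 13. Its germline sequence shown above was in 9 CD4 SP and 36 Treg cells, and a second sequence that differs in an arginine codon was in 6 and 10. Another member on TRAJ12 (54206553 to 54206610), with 48 CD4 SP and 3 Treg cells, shows the pattern plainly, because its last alanine codon was found with each of the 4 bases in its closing position.
TRAJ12 member, 27 CD4 SP and 2 Treg cells: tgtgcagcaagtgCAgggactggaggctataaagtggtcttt
TRAJ12 member, 12 CD4 SP and 0 Treg cells: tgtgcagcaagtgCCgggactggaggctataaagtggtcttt
TRAJ12 member, 7 CD4 SP and 0 Treg cells: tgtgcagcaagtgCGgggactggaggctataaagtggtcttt
TRAJ12 member, 1 CD4 SP and 1 Treg cell: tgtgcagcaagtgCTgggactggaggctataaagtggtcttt
The 3 Treg cells carried the most and the least frequent of these in CD4 SP, and 1 further CD4 SP cell had another sequence.

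In 43 members no nucleotide sequence was common to both sides. For 37 of them the closest pair differed by 1 base, for 40 by at most 2, and the farthest closest pair by 4. The chains compared were supported by at least 3 UMIs in the best covered cell. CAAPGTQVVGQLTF, on TRAJ5 (54213777 to 54213838), had the most cells of this kind, 6 in CD4 SP and 2 in Tregs, all with TRAV14D-3-DV8. The pairs of alanine and proline codons at residues 3 and 4 differed between the populations.
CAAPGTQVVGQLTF, 2 CD4 SP cells: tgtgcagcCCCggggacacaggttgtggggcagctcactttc
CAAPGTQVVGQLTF, 2 CD4 SP cells: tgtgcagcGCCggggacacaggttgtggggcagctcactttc
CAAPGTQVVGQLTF, 1 CD4 SP cell: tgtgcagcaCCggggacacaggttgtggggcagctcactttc
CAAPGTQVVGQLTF, 1 CD4 SP cell: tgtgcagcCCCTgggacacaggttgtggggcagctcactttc
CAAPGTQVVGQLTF, 1 Treg cell: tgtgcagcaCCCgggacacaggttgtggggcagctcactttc
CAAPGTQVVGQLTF, 1 Treg cell: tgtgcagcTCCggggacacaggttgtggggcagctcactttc
The 8 cells held 6 nucleotide sequences, and no sequence of the CD4 SP cells recurred in the Treg cells. The other members of this kind with the most cells were 1 on TRAJ32 (5 CD4 SP cells and 1 Treg cell), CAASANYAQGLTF (4 and 1), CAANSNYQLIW (4 and 1), 1 on TRAJ17 (3 and 1) and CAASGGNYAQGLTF (2 and 2).

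The V copy joined to a member often differed between CD4 SP cells and Tregs. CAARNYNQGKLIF used TRAV14N-3 (53370077 to 53370575) in 15 of 18 CD4 SP cells and in 5 of 56 Treg cells. TRAV14-2 (53640701 to 53641225) was used in 1 of 18 CD4 SP cells and in 44 of 56 Treg cells (78.6%, 65.6 to 88.4). The CD25+ TRP cells had both, with TRAV14-2 in 19 and TRAV14N-3 in 18 of 38 cells. In Foxp3lo TRP, 14 of 25 cells used TRAV14N-3 and 5 used TRAV14-2. The same split was present within 1 nucleotide sequence: of the germline junction shown above, 8 of 9 CD4 SP cells used TRAV14N-3, and 27 of 36 Treg cells used TRAV14-2. These copies differ at 13 of the last 250 bases of the V segment, none of them in the stretch from the cysteine codon on.

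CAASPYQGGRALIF had TRAV14D-3-DV8 (53078452 to 53079045) in 5 of 5 CD4 SP cells and TRAV14-1 (53554022 to 53554558) in 8 of 9 Treg cells, all of them CD73+. Its most frequent nucleotide sequence, shown above, was in 3 CD4 SP cells, all with TRAV14D-3-DV8, and in 6 Treg cells, all with TRAV14-1. The CD25+ TRP cells again had both copies, 4 with TRAV14-1 and 2 with TRAV14D-3-DV8. These copies differ at 18 of 250 bases. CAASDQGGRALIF, on the same J, used TRAV14-1 in 7 of 7 Treg cells and TRAV14N-2 in its CD4 SP cell.
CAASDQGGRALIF, 0 CD4 SP and 6 Treg cells: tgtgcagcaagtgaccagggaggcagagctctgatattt
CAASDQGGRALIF, 1 CD4 SP and 1 Treg cell: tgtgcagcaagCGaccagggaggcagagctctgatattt
The sequence with 0 bases outside germline was in Tregs and not in CD4 SP, and the 1 in both came with different V copies.

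A pair of members on TRAJ26 (54194490 to 54194549), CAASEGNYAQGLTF and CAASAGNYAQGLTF, had the V copy of the progenitors in Tregs and another in CD4 SP. These and the next members were chosen after their values were seen. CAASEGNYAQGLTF used TRAV14N-1 in 9 of 9 CD25+ TRP, 9 of 9 Foxp3lo TRP and 4 of 5 Treg cells, and TRAV14D-3-DV8 in 4 of 6 CD4 SP cells. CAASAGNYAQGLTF used TRAV14N-1 in 9 of 10 CD25+ TRP, 10 of 10 Foxp3lo TRP and 4 of 5 Treg cells, and TRAV14D-3-DV8 in 3 of 4 CD4 SP cells. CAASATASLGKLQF, on TRAJ24, went the other way, since CD25+ TRP (11 of 11) and CD4 SP (4 of 5) used TRAV14-1 and Tregs used TRAV14N-1 (4 of 4). Members that kept 1 leading copy included the TRAJ12 member with 4 alanine codons shown above (TRAV14N-2 in 36 of 48 CD4 SP and 3 of 3 Treg cells) and a TRAJ32 member with 5 CD4 SP and 11 Treg cells (TRAV14-2 in 5 of 5 and 7 of 11). The member with the most cells used TRAV14D-3-DV8 in 51 and TRAV14N-2 in 45 of 113 CD4 SP cells. In Foxp3lo TRP it used TRAV14D-3-DV8 in 37 of 38 cells, and in Tregs in 4 of 5.

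**Figure D2:**
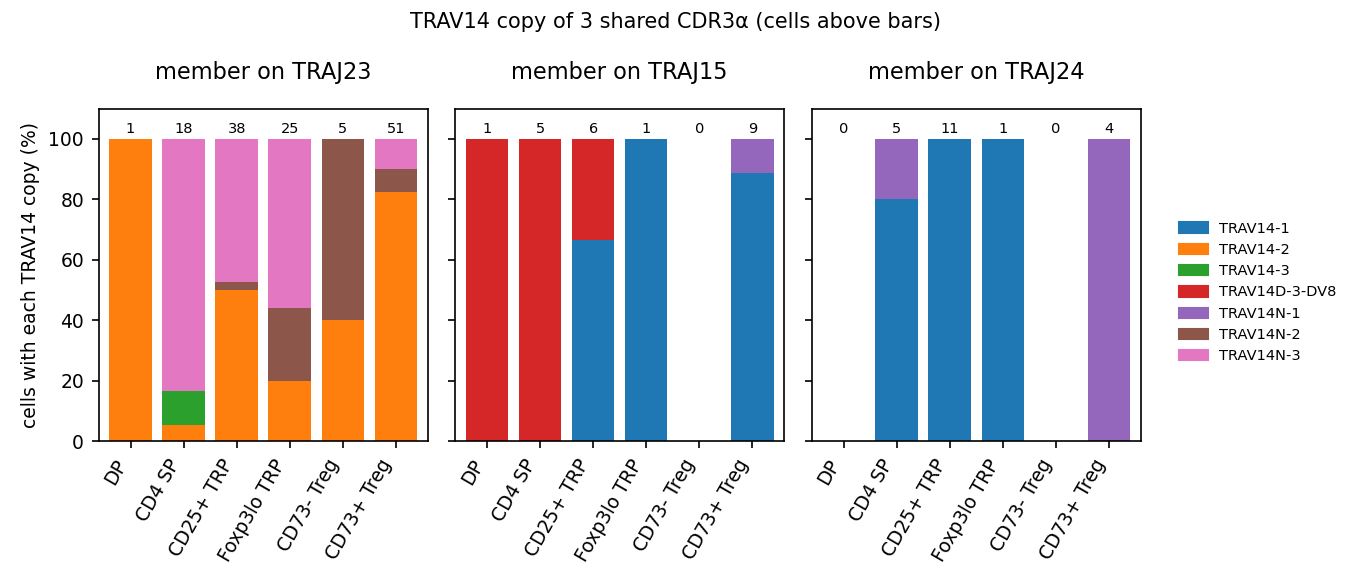
Share of cells with each TRAV14 copy (y axis, %) in the 6 populations (x axis) for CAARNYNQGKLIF (left, TRAJ23), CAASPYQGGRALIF (middle, TRAJ15) and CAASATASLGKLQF (right, TRAJ24), with the number of cells above each bar. In the left and middle panels the leading copy of the CD4 SP cells is a minor or missing one in the CD73+ Tregs, and the CD25+ TRP cells hold both.

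Over all 19 members with at least 3 cells on each side, the leading V copy was the same in CD4 SP and Tregs for 10 (52.6%, 28.9 to 75.6), counting a tie for the lead as the same. The CDR3α common to CD4 SP and CD25+ TRP, by the same minimum, had the same leading copy in 52 of 63 (82.5%, 70.9 to 90.9). The share was 29 of 35 for CD25+ TRP and Tregs (82.9%, 66.4 to 93.4), 26 of 30 for the progenitor populations (86.7%, 69.3 to 96.2), 14 of 17 for Foxp3lo TRP and Tregs (82.4%, 56.6 to 96.2) and 16 of 21 for CD4 SP and Foxp3lo TRP (76.2%, 52.8 to 91.8). The interval for CD4 SP and Tregs overlaps all of these, and the comparisons share populations and sequences.

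A second view used every CDR3α with exactly 1 cell in each of a pair of populations, or exactly 2 cells in 1 population, which holds the number of cells equal. The V copy was the same in 24 of 52 CD4 SP and Treg pairs (46.2%, 32.2 to 60.5). It was the same in 72 of 101 pairs within CD4 SP (71.3%, 61.4 to 79.9), 47 of 67 within Tregs (70.1%, 57.7 to 80.7) and 25 of 77 within DP (32.5%, 22.2 to 44.1). The intervals of CD4 SP with Tregs and of CD4 SP with itself do not overlap. Those of CD4 SP with Tregs and of Tregs with themselves do overlap. Pairs of CD4 SP or Tregs with a progenitor lay between. The copy was the same in 35 of 66 for CD25+ TRP and Tregs (53.0%, 40.3 to 65.4) and 25 of 42 for Foxp3lo TRP and Tregs (59.5%, 43.3 to 74.4). With CD4 SP it was the same in 27 of 49 for Foxp3lo TRP (55.1%, 40.2 to 69.3) and 55 of 92 for CD25+ TRP (59.8%, 49.0 to 69.9). Pairs with DP were lower, at 23 of 66 for DP and CD4 SP (34.8%, 23.5 to 47.6) and 18 of 70 for DP and Tregs (25.7%, 16.0 to 37.6). The intervals of these pairs across populations overlap that of CD4 SP and Tregs. They do not set CD4 SP and Tregs apart from other pairs of populations. Identical nucleotide sequences were found in 40.4% of the CD4 SP and Treg pairs, 44.6% within CD4 SP, 50.7% within Tregs and 44.2% within DP. Restricted to pairs with different nucleotide sequences, the V copy was the same in 14 of 31 CD4 SP and Treg pairs (45.2%, 27.3 to 64.0) and in 39 of 56 pairs within CD4 SP (69.6%, 55.9 to 81.2), intervals that overlap. It was the same in 17 of 38 for CD25+ TRP and Tregs (44.7%, 28.6 to 61.7), 18 of 33 within Tregs (54.5%, 36.4 to 71.9) and 15 of 43 within DP (34.9%, 21 to 50.9). Any CD4 SP and Treg cell with different CDR3α had the same V copy in 16.2% of pairs.

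**Figure D3:**
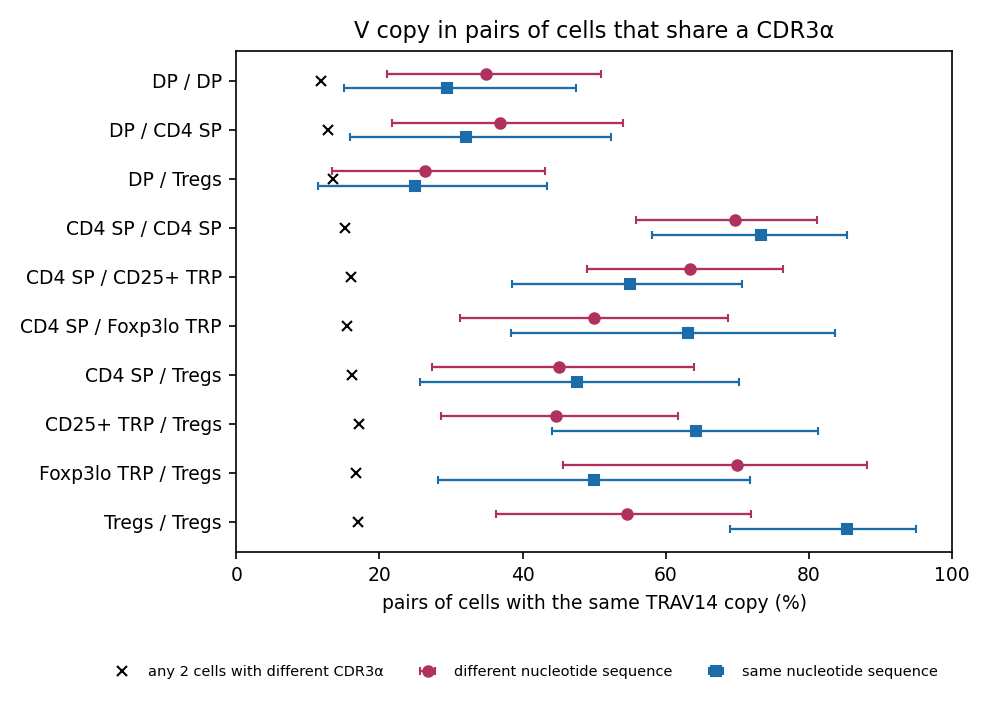
Pairs of cells that share a CDR3α and use the same TRAV14 copy (x axis, %), by the populations of the 2 cells (y axis), with exact 95% intervals. Circles are pairs with different nucleotide sequences, squares pairs with the same one, and crosses any 2 cells with different CDR3α; within CD4 SP the values are 69.6% and 73.3%, between CD4 SP and Tregs 45.2% and 47.6%, and within DP 34.9% and 29.4%.

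TRAV14D-2 and TRAV14N-2 are identical over the last 250 bases of the segment, as are TRAV14D-1 and TRAV14N-1, so their assignment is uncertain. Over all 36 pairs of copies the median was 11 differing bases. The deposited V calls were used as they are.

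Members had fewer bases outside germline than the other sets taken whole. In 94 of 137 (68.6%, 60.1 to 76.3), the most frequent nucleotide sequence had 2 or fewer bases outside the V and J germline, against 31.0% (27.8 to 34.3) of CDR3α in CD4 SP and not Tregs and 33.4% (29.7 to 37.2) of those in Tregs and not CD4 SP. Over all CDR3α of these populations the share was 35.2%. The median was 2 bases for members and 3 for each other set. For 33 members (24.1%, 17.2 to 32.1) no base was outside germline, against 7.00% and 7.68%.

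Part of this moved with the number of cells per CDR3α. With exactly 2 cells, 61.5% of members (47.0 to 74.7) had 2 or fewer such bases, against 36.9% (26.6 to 48.1) and 39.6% (25.8 to 54.7), intervals that overlap. No base was outside germline in 17.3% (8.23 to 30.3), 9.52% (4.20 to 17.9) and 10.4% (3.47 to 22.7) of that class, again with intervals that overlap. With at least 5 cells the order turned for CD4 SP, with 41 of 58 members (70.7%, 57.3 to 81.9), 18 of 24 CDR3α of CD4 SP not in Tregs (75%, 53.3 to 90.2) and 5 of 10 of Tregs not in CD4 SP (50%, 18.7 to 81.3). The medians there were 1.5, 1 and 2.5 bases. Over all CDR3α with at least 2 cells the shares were 68.6%, 49.1% (41.1 to 57.1) and 42.7% (32.3 to 53.6), but that class holds more members with many cells, so it is not matched for cell number.

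**Figure D4:**
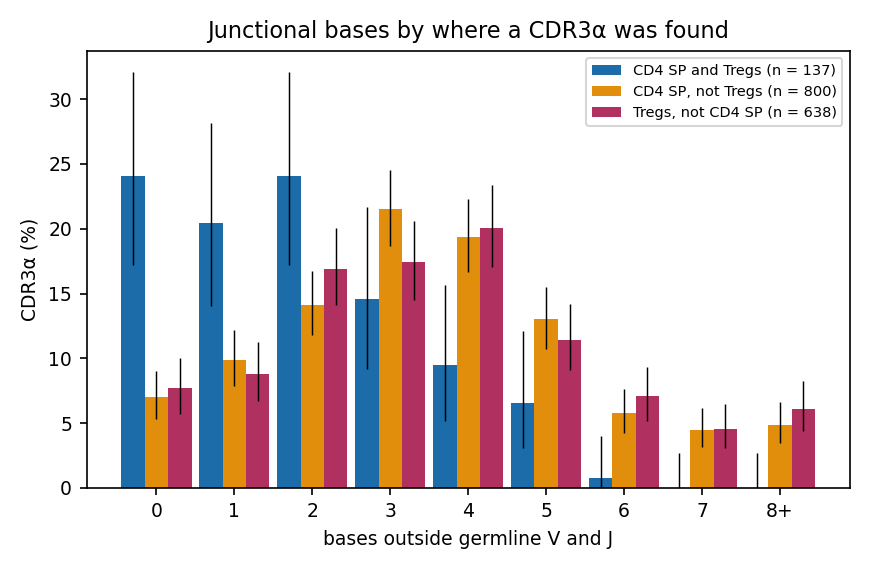
CDR3α by the number of bases outside germline V and J (x axis) as a share of each set (y axis, %), for the 137 members, the 800 CDR3α of CD4 SP not in Tregs and the 638 of Tregs not in CD4 SP with a germline match; lines are exact 95% intervals. The members lie highest at 0, 1 and 2 bases, and none had 7 or more.

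Members ran from 10 to 16 residues with a median of 13, and 75.2% (67.1 to 82.2) had 13 or 14 residues, against 59.5% (56.0 to 62.9) in CD4 SP and not Tregs and 55.9% (52.0 to 59.8) in Tregs and not CD4 SP. At least 15 residues were found in 8 members (5.84%, 2.55 to 11.2), against 21.6% (18.8 to 24.6) and 16.1% (13.3 to 19.2). Among CDR3α with at least 2 cells, 13 or 14 residues were found in 75.2% of members, 66.0% (58.1 to 73.4) and 61.8% (50.9 to 71.9), and at least 15 in 5.84%, 16.4% (11.0 to 23.0) and 11.2% (5.52 to 19.7). In this class the members' intervals overlap both others for either measure. Members of 12 or fewer residues made up 19% (12.8 to 26.6), close to the 18.9% of CDR3α in CD4 SP and not Tregs. In Tregs and not CD4 SP it was 28.0% (24.5 to 31.6), an interval that overlaps that of the members. Residue 4 was serine, as encoded by the TRAV14 end, in 67.2% of members (58.6 to 74.9). It was serine in 63.9% of CDR3α in CD4 SP and not Tregs (60.4 to 67.2) and 52.5% of those in Tregs and not CD4 SP (48.5 to 56.4). Among CDR3α with at least 2 cells these shares were 71.1% (63.4 to 78.0) and 57.3% (46.4 to 67.7). The members' interval overlaps both of the latter. Any serine was counted, also where its codon held bases from J or from outside germline.

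All 137 members used TRAV14 copies, the family of the Vα2 gate, while 0.5% and 3.28% of the other sets did not. Each CDR3α was counted once, by the V copy of its most frequent sequence in CD4 SP and Treg cells, with ties broken alphabetically. TRAV14D-3-DV8 was in 24.8% of members (17.8 to 32.9), against 27.1% in CD4 SP and not Tregs and 23.4% in Tregs and not CD4 SP. TRAV14-1 was in 24.1% (17.2 to 32.1), against 18.8% and 19.7%, and TRAV14N-1 in 19% (12.8 to 26.6), against 18.0% and 18.0%. All of these other shares lie within the members' intervals. The remaining copies at or above 5% were TRAV14-2 (8.76%), TRAV14N-2 (8.03%), TRAV14N-3 (8.03%) and TRAV14-3 (5.84%). Counted by cell, some shares differed. In CD4 SP, TRAV14-1 was in 8.96% of cells with a member (6.84 to 11.5) and 17.6% of the others (15.6 to 19.9). TRAV14N-2 was in 21.6% and 7.35%, while TRAV14D-3-DV8 (26.9% and 25.3%) and TRAV14N-1 (14.6% and 15.4%) were close. In Tregs, TRAV14-2 was in 20.1% and 7.55%, and TRAV14D-3-DV8 in 18.3% and 33.2%. Counts by cell weigh each member by its cells.

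Members used 31 of the 42 TRAJ segments seen in CD4 SP and Tregs, 7 of them once. TRAJ23 and TRAJ26 were each in 10.9% of members (6.26 to 17.4), TRAJ13 in 9.49% (5.15 to 15.7), TRAJ4 (54216291 to 54216353) in 8.76% (4.61 to 14.8) and TRAJ15 in 8.03% (4.08 to 13.9). Each was less frequent in CDR3α of CD4 SP not in Tregs, at 4.88% (3.49 to 6.6), 4.12% (2.86 to 5.74), 3.00% (1.93 to 4.43), 3.00% (1.93 to 4.43) and 3.50% (2.34 to 5.02). For TRAJ26, TRAJ13 and TRAJ4 the intervals lie apart, and for TRAJ23 and TRAJ15 they overlap. These shares are not matched for cells per CDR3α. In Tregs not in CD4 SP the same 5 segments were at 3.44%, 6.09%, 3.28%, 5.94% and 5.47%. TRAJ22 (5.84% of members, 3.38% and 7.34%) and TRAJ43 (5.11%, 3.75% and 2.34%) were the other segments at or above 5% of members. TRAJ12 reached 5% in the Treg set only, at 2.19% of members. Counted by cell, TRAJ13 was in 26.4% of CD4 SP cells with a member and 2.70% of the others. TRAJ12 was in 11.7% and 3.35%. In Tregs, TRAJ23 was in 26.0% of cells with a member and 2.44% of the others. The 2 members with the most cells, on TRAJ13 and TRAJ23, made up 131 of the 625 CD4 SP and 61 of the 339 Treg cells with a member.

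Most members were also seen in the progenitors, which the rule did not use. In CD25+ TRP, 102 of 137 members were found (74.5%, 66.3 to 81.5), against 24.7% of all CDR3α of CD4 SP or Tregs. In Foxp3lo TRP, 73 were found (53.3%, 44.6 to 61.9), against 13.8%. Either progenitor held 109 (79.6%), against 29%, and 66 were in both. DP cells held 53 (38.7%, 30.5 to 47.4), against 15.5%, and 12 members were in all 6 populations. In cells, members were carried by 506 of 1783 CD25+ TRP (28.4%, 26.3 to 30.5), 271 of 804 Foxp3lo TRP (33.7%, 30.4 to 37.1) and 105 of 1266 DP cells (8.29%, 6.83 to 9.95).

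A CDR3α with more cells is more easily seen anywhere, so the shares were also set side by side at equal numbers of cells. With exactly 2 cells, either progenitor held 55.8% of members (41.3 to 69.5), 51.2% of CDR3α in CD4 SP and not Tregs (40.0 to 62.3) and 29.2% of those in Tregs and not CD4 SP (17.0 to 44.1). Members and CD4 SP sequences of this class had similar shares, with wide intervals. The Treg sequences were lower, with an interval that overlaps that of the members. In DP the 3 shares were 26.9%, 23.8% and 12.5%.

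In the authors' clusters of expression, CD4 SP cells with a member were spread like the other CD4 SP cells. Cluster 1 held 36.5% (32.7 to 40.4) of them and 39.1% (36.4 to 41.9) of the others, and cluster 2 held 39.2% and 38.2%. In CD73+ Tregs the spread differed. Cluster 9 held 11.9% of the cells with a member (8.28 to 16.4) and 25.6% of the others (22.6 to 28.8). It held 14.5% (10.1 to 19.9) without the 2 members with the most cells. The 788 other cells were not cut in this way, and they include 72 with CAASAGYSNNRLTL and 60 with 1 further CDR3α. Cluster 0 held 14.5% (10.5 to 19.3) and 8.63% (6.76 to 10.8), intervals that overlap, and cluster 3 held 37.2% and 34.0%. Seen the other way, members were carried by 32 of 234 CD73+ Treg cells in cluster 9 (13.7%) and by 39 of 107 in cluster 0 (36.4%). In CD73- Tregs, cluster 7 held 5.71% of cells with a member (1.58 to 14) and 16.3% of the others (10.9 to 23.2), intervals that overlap.

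DP cells with a member were also spread unevenly. Cluster 6 held 67.6% (57.8 to 76.4) of them and 43.8% (41.0 to 46.8) of the other DP cells, and cluster 4 held 6.67% (2.72 to 13.3) and 29.5% (26.8 to 32.2). Cluster 1 held 5.71% (2.13 to 12.0) and 0.861% (0.414 to 1.58). Without the 2 members with the most cells it held 3.23% (0.670 to 9.14) of DP cells with a member. Cluster 2 held 5.71% (2.13 to 12.0) and 2.41% (1.61 to 3.47), intervals that overlap. The clusters have no gene names here and stay numbers. Few Treg cells lay in clusters 1 and 2, where most CD4 SP cells were, 4.72% of those with a member (2.72 to 7.55) and 2.76% of the others (1.81 to 4.02).

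**Figure D5:**
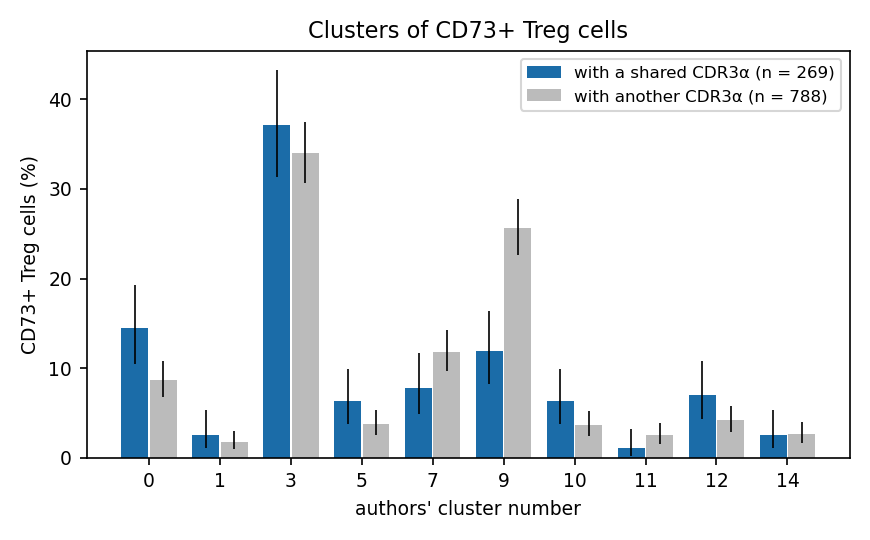
Share of CD73+ Treg cells in each of the authors' clusters (x axis, cluster number; y axis, %), for 269 cells with a member and 788 with another CDR3α; lines are exact 95% intervals, and clusters with under 20 of these cells are left out. The bars for cluster 9 stand apart, at 11.9% and 25.6%.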

How the data were processed

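UMI counts, hashtag classes, cluster numbers and TCR contigs were used as deposited by the authors for 12208 cells. Per the submitters' processing notes, mm10 and GRCm38 were the builds, and Seurat 3.1.1 and Cell Ranger 3.1.0 were among the tools. How doublets and poor cells were removed is not given in the sources used here. Only 1 measure of expression entered, the total UMI count per cell, and the natural log matrix deposited by the authors was not used. Cells whose hashtag class reads Treg, with no CD73 given, were taken as CD73- Treg. Metadata were joined to barcodes by order, checked by clonotype (6982 of 6982 cells matched). Cells with 2 productive α chains (330) or none (4896) were left out.

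Each CDR3 nucleotide sequence was matched from its 5′ end to the deposited V segment (at least 3 bases) and from its 3′ end to the J segment (at least 9 bases) in GENCODE M21; 6970 of 6982 chains matched. Members were named if among the 12 with the most cells, the 6 highest or 6 lowest ratios with at least 6 cells, the 6 largest without a common nucleotide sequence, or the 4 with the most nucleotide sequences; V and J segments if in at least 5% of a set. The members, lists and rules were chosen with earlier results of these data known. Comparisons of V copies, and pairs of single cells, were added after seeing the data. No test was possible with 1 sample per population. Python 3.11.15, pandas 2.3.3, numpy 2.4.6 and scipy 1.17.1 were used, and the scripts were tested on simulated data.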

Additional observations from a re-analysis of the deposited data

How the results depend on the processing

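Over 26 results and 14 other settings, 202 of 246 shares and medians stayed within the reported interval and 44 did not. Of 11 counts of shared sequences, 8 stayed within 1.5 times the reported count and 3 did not. Some settings were chosen after seeing the data. They leave out the 2 members with the most cells, restrict clusters, merge V copies or take the sequence with the fewest bases outside germline. With nucleotide sequence, V and J as the clonotype there were 64 shared clonotypes, in 11.4% of CD4 SP, 8.83% of Treg, 1.26% of DP, 9.31% of CD25+ TRP and 14.1% of Foxp3lo TRP cells; 21.9% were also in DP and 43.8% in Foxp3lo TRP, 78.1% had 2 or fewer bases outside germline, and cluster shares were 31.8% (CD4 SP, cluster 1), 8.14% and 23.3% (CD73+ Treg, clusters 9 and 0). With at least 2 cells on each side, 35 members were left, in 19% of CD4 SP, 15.9% of Treg, 4.03% of DP, 17.9% of CD25+ TRP and 21.8% of Foxp3lo TRP cells; 97.1% were also in CD25+ TRP and 77.1% in Foxp3lo TRP, 94.3% had a common nucleotide sequence, 65.7% with the V copy, 94.3% had more than 1 nucleotide sequence, 85.7% had 13 or 14 residues, 37.1% had a ratio of at least 2, and median Treg UMIs were 2627. With CD73- Tregs alone there were 48 members, in 14.8% of CD4 SP, 31.4% of Treg, 3.40% of DP, 15.8% of CD25+ TRP and 21.4% of Foxp3lo TRP cells; 75% were also in Foxp3lo TRP, 31.9% of CD4 SP cells were in cluster 1, 85.4% had a ratio of at least 2 and 4.17% of at most 1/2, and median UMIs were 2463 (CD4 SP), 17 (CD4 SP, TCRα) and 2509.5 (Treg). With CD73+ Tregs alone, 31.1% of CD4 SP cells carried a member, and with all productive chains 36.4%. The Treg share was 29.3% without cluster 9 and 23.0% with CD4 SP cells of clusters 1 and 2 and Tregs outside them. Without the 2 members with the most cells, shares were 26.7% (CD4 SP), 21.7% (Treg), 22.9% (CD25+ TRP) and 25.9% (Foxp3lo TRP). No paired analysis was possible because each library type is 1 sample and no population has a replicate. The 223 CD73- Treg cells limit what can be seen of rare members there, and a CDR3α listed in 1 population may be undetected in another.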

Other observations

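Members had close relatives among all CDR3α, as did most other CDR3α. A sequence that differed from the member by 1 amino acid substitution existed for 135 of 137 members (98.5%), with a median of 9 such neighbours per member. With at least 2 cells, 98.1% of CDR3α in CD4 SP and not Tregs had a neighbour, with a median of 7. In Tregs and not CD4 SP it was 87.6%, with a median of 5. At least 1 neighbour was itself a member for 85 of 137 members (62.0%, 53.4 to 70.2). The share was 45.9% (38 to 54.0) for CDR3α of CD4 SP not in Tregs with at least 2 cells and 34.8% (25 to 45.7) for those of Tregs not in CD4 SP. With exactly 2 cells the shares were 55.8% (41.3 to 69.5), 41.7% (31.0 to 52.9) and 29.2% (17.0 to 44.1), intervals that overlap. The member with the most cells had 20 neighbours, 5 of them members, and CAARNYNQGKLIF had 10, 2 of them members (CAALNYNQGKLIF and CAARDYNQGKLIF). The number of neighbours depends on length and J use, which were not matched.

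Residue 4 was arginine, as in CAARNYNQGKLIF, in 20 of 137 members (14.6%, 9.15 to 21.6) and in 10.9% of CDR3α in CD4 SP and not Tregs (8.80 to 13.2). In Tregs and not CD4 SP it was 15.9% (13.2 to 19), and the members' interval overlaps both.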
